A study of Mus musculus with 24 samples.

Results

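The quadriceps response of C57BL/6 (B6) mice to a muscle injury filled with polyethylene (PE) is described here, as the difference between 3 PE-treated and 3 uninjured B6 libraries of bulk RNA across 14159 genes. These are 6 of 24 libraries, and the 6 libraries were taken by their labels. The other 18 are 6 groups of 3, namely B6 mice whose injury received saline (the control injury) or decellularized extracellular matrix (ECM), and the same 4 treatments in MRL/MpJ (MRL) mice. In the injured mice a 3 mm by 3 mm piece of the mid-belly quadriceps was cut out (volumetric muscle loss), the gap was filled with ultra-high molecular weight PE powder, and the muscle was collected 21 days later. The mice were female C57BL/6J, 6 to 8 weeks old at surgery, and carried no engineered allele. The whole quadriceps was extracted, so a library mixes the implant site with the muscle around it. RNA was selected by its poly(A) tail and a synthetic spike-in RNA was added to it.

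Skeletal muscle fibres that are cut degenerate, and resident satellite cells normally proliferate, fuse and build new fibres that pass through an embryonic and a neonatal myosin stage. A plastic that cannot be degraded draws a foreign body response instead, in which monocytes and neutrophils enter, macrophages gather on the particles and fuse into giant cells that resemble osteoclasts, and fibroblasts wall the material off with collagen. The genes below are ordered along that sequence, from the phagocytes to the matrix, the new fibres, energy metabolism and the other cells of the tissue.

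Levels are log2 CPM, read counts that the authors scaled to library size, and each list of values gives replicates 1, 2 and 3 in that order. A log2 fold change is the mean of the PE libraries minus the mean of the uninjured libraries, so positive values are higher with PE. The lowest level, -3.65, is a count of 0. It leaves room for as many as 3 counts, which is 0.119 CPM at the mean effective library size of 25149678 reads, a limit for counting error only. Genes were tested with limma over all 24 libraries, and a gene was called (rose or fell) when its p adjusted over all 14159 genes was under 0.05. The labels do not say that the 3 libraries of a group are separate animals, although the methods describe 3 independent muscles, so the p-values measure the spread between these libraries. Permuting 3 libraries against 3 exactly gives no p under 0.1, so that test was not used for single genes.

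Muscle genes marked every B6 library as muscle. Ttn, which encodes the giant sarcomere protein titin, was at 13.76, 13.16 and 13.79 in uninjured muscle and at 13.10, 12.08 and 13.18 with PE. PE replicate 2 stood furthest from the uninjured libraries, with a mean Pearson correlation of 0.801 across genes against 0.867 and 0.893 for replicates 1 and 3. The sum of CPM over all genes was 747500 to 863400 in the PE libraries and 1026000 to 1129000 in the uninjured ones. The PE libraries carry the same first sequencing index as each other and the uninjured libraries carry another. Between these 2 groups an effect of that index cannot be told apart from the injury. Saline replicates 1 and 2 carry the index of the PE libraries and saline replicate 3 that of the uninjured ones. Uninjured replicate 2 and ECM replicate 3 were high in fat genes, and saline replicate 2 lacked the genes of new fibres that the other saline libraries held. The 3 PE-treated MRL libraries were unlike each other, with a correlation as low as 0.812, and they enter the fit through its shared estimate of the spread. Without them 4663 genes were called, among them 3506 of the 3508 of the fit with all libraries. Genes named below that were called without them and not with all libraries included Spp1, Mrc1, Lamp1, Mki67, Lox, Eno3, Adipoq and Plin1.

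In PE-treated muscle 3508 of the 14159 genes were called (24.8%), of which 2086 rose (14.7%) and 1422 fell (10%). Changes above 8-fold were 481 increases and 63 decreases. The 3 PE libraries did not overlap the 3 uninjured libraries for 7238 genes (51.1%), which included 3454 of the called ones, and the unadjusted p was under 0.05 for 5788 (40.9%). By direction, all PE libraries were higher for 27.0% of the genes and all lower for 24.1%. The count of calls depended on single libraries. It was 533 without PE replicate 2 (438 higher and 95 lower), 1681 without uninjured replicate 1, 1719 without uninjured replicate 3 and 2087 without PE replicate 1. In each of the 6 fits that left out 1 library, 511 of the genes were called in the same direction, 428 of them higher. Scaling the libraries to equal totals moved the median log2 fold change of all genes from 0.02 to 0.43 and gave 3754 increases and 551 decreases. Weighting the libraries by how well they follow their group called 9004 genes. Quantile normalization moved the median to -0.14 and gave 1811 increases and 2019 decreases. Changes are therefore read against the median of all genes, 0.02. Counts of calls in each list below are read against the shares of all genes, 14.7% higher and 10% lower.

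**Figure D1:**
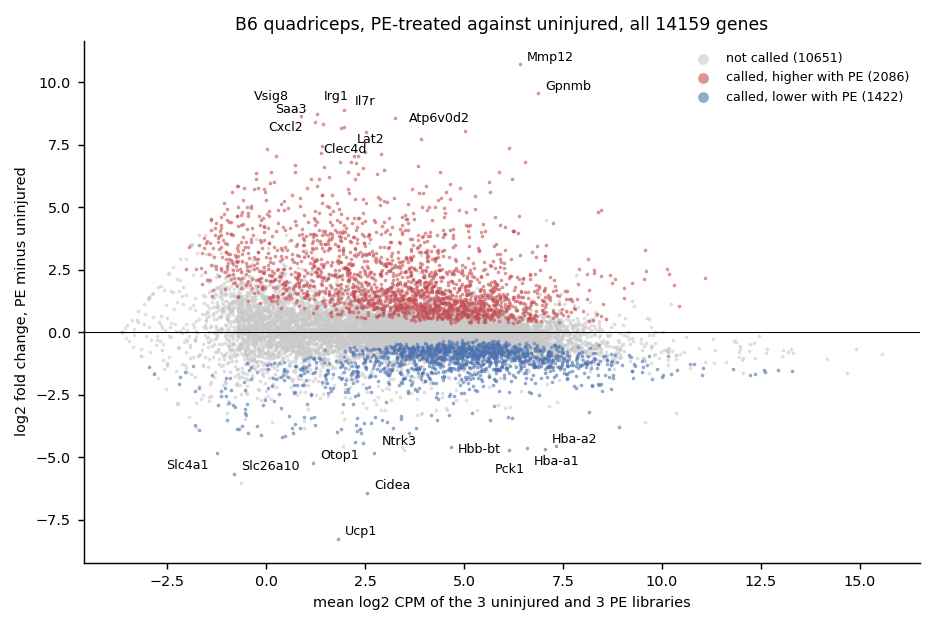
Log2 fold change of PE-treated against uninjured B6 quadriceps (vertical axis) against the mean log2 CPM of the 6 libraries (horizontal axis) for 14159 genes. Red points are the 2086 genes called higher, blue points the 1422 called lower and grey points those not called, and the 20 genes named by their size of change are labelled, from Mmp12 at 10.71 to Ucp1 at -8.25.

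Most of the genes with the largest increases, among called genes whose libraries did not overlap, encode enzymes, receptors and signals known from activated phagocytes. Mmp12, the macrophage elastase (GRCm39 chromosome 9, 7344381 to 7369499, plus strand, protein coding), was at -0.59, -0.04 and 3.78 in uninjured muscle and at 11.57, 12.60 and 11.12 with PE. It rose by 10.71 on the log2 scale (SE 1.96, adjusted p = 0.00279), from 1.05 ± 2.38 to 11.76 ± 0.76 (SD, n = 3). Uninjured replicate 3 was higher than the other uninjured libraries and still far below every PE library. Gpnmb, a transmembrane glycoprotein of lysosome-rich macrophages on chromosome 6 from 49013426 to 49047863, was at 1.44, 1.24 and 3.57 without injury and at 11.36, 12.54 and 11.01 with PE (log2 fold change 9.55, SE 1.52, adjusted p = 0.0018). Again the groups were far apart, and uninjured replicate 3 was the highest of its group. Irg1, the enzyme that makes itaconate in stimulated macrophages, was at 0 counts in 2 uninjured libraries and at -1.95 in replicate 3, and at 5.70, 6.96 and 4.24 with PE (log2 fold change 8.72, SE 1.32, adjusted p = 0.00152). Il7r, the receptor for interleukin 7, rose by 8.89 (SE 1.83, adjusted p = 0.00444). Saa3, an acute phase protein made by macrophages, rose by 8.43 (SE 1.34, adjusted p = 0.0018) and Cxcl2, a chemokine that draws neutrophils, by 8.33 (SE 1.36, adjusted p = 0.0018). Lat2, a signalling adaptor of myeloid cells, rose by 8.21 and Clec4d, a C-type lectin receptor, by 8.19. Vsig8, which encodes a membrane protein with immunoglobulin domains, rose by 8.64 (SE 1.14, adjusted p = 0.00142). Counts worked back from the deposited values gave 1 over the 3 uninjured libraries and 3302 over the PE libraries, a CPM ratio of 3120.5 with an exact interval of 592 to 130460 that covers counting error only and not the spread between libraries. All of these genes were called in each of the 6 fits that left out 1 library. Of the 481 genes that rose above 8-fold, 99 are members of the immune lists below and 357 are in none of the lists.

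Nearly every macrophage gene rose. Of the 24 macrophage genes measured, 23 rose and 0 fell, with a median log2 fold change of 3.94. Cd68, the lysosomal membrane protein used to stain macrophages, was at 1.92, 1.94 and 2.22 in uninjured muscle and at 7.66, 8.72 and 6.99 with PE (log2 fold change 5.76, SE 0.95, adjusted p = 0.0018). The groups did not overlap, and PE replicate 2 was highest. Mpeg1, a pore-forming protein of phagocytes, rose by 6.12 (SE 1.10) and Cybb, the catalytic subunit of the phagocyte NADPH oxidase, by 6.03 (SE 0.96). Emr1, a surface antigen used to mark mouse macrophages, rose by 3.92 (SE 0.74), Csf1r, the receptor for the macrophage growth factor, by 2.81 (SE 0.61), and Ccr2, the chemokine receptor that brings monocytes out of blood, by 2.11 (SE 0.62). Of the 23 calls, 18 held in each of the 6 fits that left out 1 library, and without PE replicate 2 18 were called. In bulk RNA more cells of a type and more RNA per cell cannot be told apart, here and for every cell type below.

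The receptors by which myeloid cells sense particles, complexes and microbes rose as a whole. All 19 activating and inhibitory receptors measured were called higher, with a median log2 fold change of 4.52. Fcer1g, the signalling chain shared by several of them, was at 1.17, 1.22 and 1.08 without injury and at 5.75, 6.68 and 5.17 with PE (log2 fold change 4.71, SE 0.78, adjusted p = 0.0018). Its groups were separated by several units. Tlr13, which senses bacterial ribosomal RNA, rose by 7.05 (SE 1.01), Clec7a, the beta-glucan receptor, by 6.67 (SE 1.16), and Pirb, an inhibitory receptor, by 4.77 (SE 0.86). Tlr2 rose by 3.23 (SE 0.60) and Tlr4 by 1.31, and 13 of the 19 held in each of the 6 fits. Cd300lb and Cd300ld, which rose by 6.57 and 5.37, belong to a family of similar genes between which reads may have been divided.

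Genes of macrophage fusion and of osteoclasts rose in part. Of the 19 giant cell and osteoclast genes measured, 12 rose and 0 fell, with a median log2 fold change of 2.59. Dcstamp, a membrane protein needed for macrophages to fuse, was at 0 counts in 2 uninjured libraries and at -1.95 in replicate 3, and at 3.48, 3.85 and 2.64 with PE (log2 fold change 6.41, SE 1.24, adjusted p = 0.00328). Atp6v0d2, a proton pump subunit of osteoclasts and giant cells, was at -1.97, -1.34 and 0.20 without injury and at 7.43, 8.37 and 6.80 with PE (log2 fold change 8.57, SE 1.44, adjusted p = 0.00191). Neither gene overlapped between the groups. Ctsk, the collagen-cleaving protease of osteoclasts, rose by 5.60 (SE 1.11), Adam8 by 5.86 (SE 1.18) and Tnfrsf11a, the receptor RANK, by 2.88 (SE 0.61). Other members did not pass the test. Ocstamp, the other fusion protein of the list, stood at 0.25, 0.35 and 0.93 without injury and at 0.94, 1.04 and -0.31 with PE (log2 fold change 0.05, adjusted p = 0.928), and Acp5, the tartrate-resistant phosphatase, had a log2 fold change of 0.70 (SE 0.83, adjusted p = 0.535). For both the groups overlapped. Of the 12 calls, 8 held in each of the 6 fits.

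Genes of lipid-associated macrophages, a state described in fat and in foreign body tissue, rose with them. Of 20 measured, 14 rose and 1 fell, with a median log2 fold change of 3.21, and 10 of the increases held in each of the 6 fits. Trem2, the lipid-sensing receptor of these cells, was at -0.12, -0.11 and 0.38 in uninjured muscle and at 7.69, 8.64 and 6.99 with PE (log2 fold change 7.72, SE 1.28, adjusted p = 0.0018). The gap between the groups was wider than either group's range. Itgax, the integrin CD11c, rose by 8.05 (SE 1.61), Lgals3, a galectin of phagocytes, by 7.38 (SE 1.13), and Abcg1, a cholesterol exporter, by 3.86. Spp1, osteopontin, was at 4.76, 4.52 and 5.19 without injury and at 9.55, 10.15 and 8.26 with PE. It did not pass the test (log2 fold change 4.49, SE 1.64, adjusted p = 0.0513), although the groups did not overlap. With the MRL PE libraries left out of the fit the SE of Spp1 was 0.76 and it passed (adjusted p = 0.000351). The member that fell was Fabp4 (-2.36), a fatty acid carrier that fat cells also hold, and its call was lost in each of the 6 fits.

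**Figure D2:**
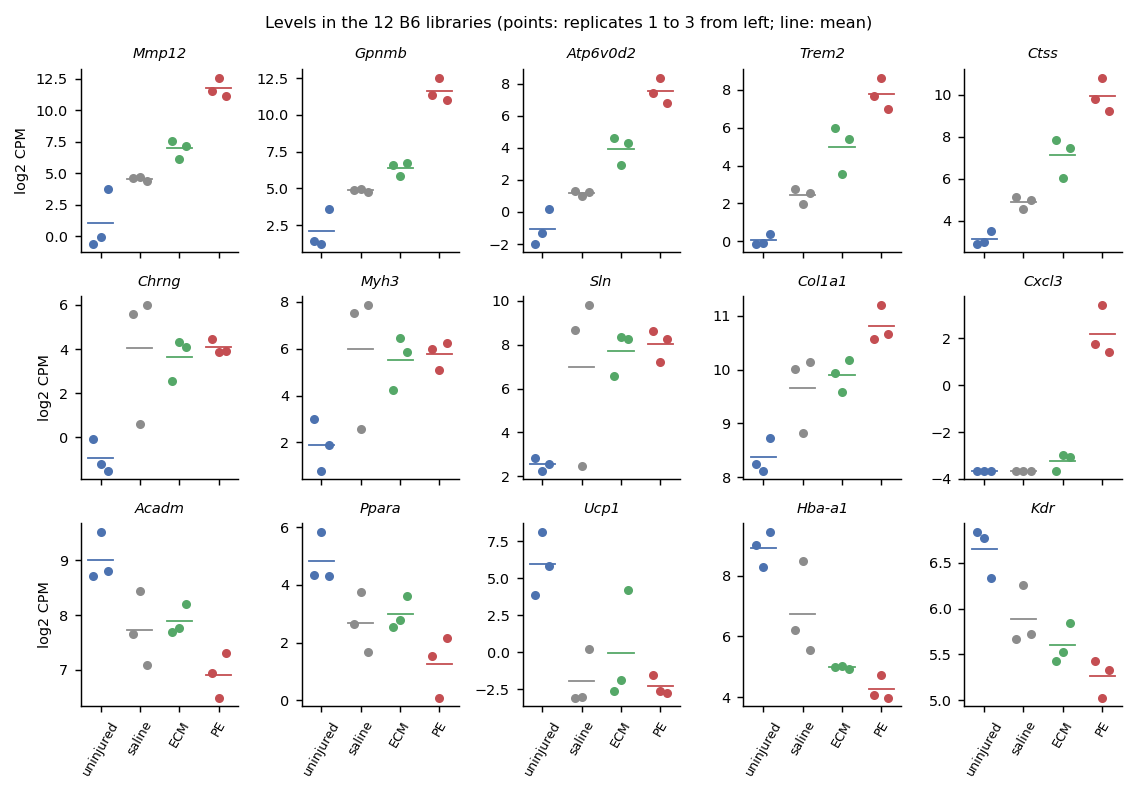
Log2 CPM of 15 genes (1 panel each, vertical axis) in the 12 B6 libraries by treatment (horizontal axis), with 1 point per library and a line at the mean of the 3. Mmp12, Gpnmb, Atp6v0d2, Trem2 and Ctss are highest in the PE libraries, Chrng, Myh3 and Sln have similar means with ECM and PE and are above the PE libraries in 2 of the 3 saline libraries, and Acadm, Ppara, Hba-a1 and Kdr have their lowest mean with PE.

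The promoters of 3 of these protease and proton pump genes are printed because they share a short motif. The sequences are the 250 bases before the start of the canonical transcript (GENCODE M39 annotation, GRCm39 genome), on the strand of the gene, and capitals mark TGAGTCA or its reverse complement, the letters bound by AP-1 factors. The first base of the motif lies 44 bases before the start in Mmp12, 35 in Mmp13 and 63 in Atp6v0d2.
Mmp12, chr9:7347124-7347373, plus strand: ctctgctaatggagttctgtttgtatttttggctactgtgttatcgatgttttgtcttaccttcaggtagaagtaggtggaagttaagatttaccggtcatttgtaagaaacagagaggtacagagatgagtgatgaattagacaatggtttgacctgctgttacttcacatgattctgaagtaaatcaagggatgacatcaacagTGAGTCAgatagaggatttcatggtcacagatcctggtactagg
Mmp13, chr9:7272264-7272513, plus strand: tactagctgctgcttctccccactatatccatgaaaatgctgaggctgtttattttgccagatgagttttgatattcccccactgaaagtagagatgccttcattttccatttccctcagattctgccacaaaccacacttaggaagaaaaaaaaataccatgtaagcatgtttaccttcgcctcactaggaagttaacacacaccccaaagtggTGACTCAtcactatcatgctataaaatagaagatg
Atp6v0d2, chr4:19922615-19922864, minus strand: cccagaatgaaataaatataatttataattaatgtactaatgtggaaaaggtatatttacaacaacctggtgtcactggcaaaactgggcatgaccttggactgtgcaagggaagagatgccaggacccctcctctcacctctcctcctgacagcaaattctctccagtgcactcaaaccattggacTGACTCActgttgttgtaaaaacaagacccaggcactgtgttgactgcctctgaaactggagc
Of the 19 giant cell and osteoclast promoters, 4 held TGAGTCA on either strand (21.1%), those of Mmp9, Atp6v0d2, Mmp12 and P2rx7. Of the 17 matrix protease promoters 4 held it (23.5%), those of Mmp13, Mmp3, Mmp19 and Plaur, against 3.28% of all 13788 promoters. All 8 of these genes were called higher, in lists where 12 of 19 and 9 of 17 members were. Whether genes with the motif are called more often than genes without it was not tested. The motif is 1 of 9 that were searched in 34 lists, and a match is a description of the letters, not of a bound site.

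Lysosomal genes rose broadly, and by less per gene. Of 42 measured, 33 rose and 0 fell, with a median log2 fold change of 1.66. The increases covered proteases, sugar-cleaving enzymes and the proton pump. Ctss, a cathepsin of antigen-presenting cells, was at 2.90, 2.97 and 3.50 without injury and at 9.79, 10.82 and 9.21 with PE (log2 fold change 6.82, SE 1.11, adjusted p = 0.0018). Ctsz rose by 3.50 (SE 0.65) and Ctsl by 2.92 (SE 0.48), and the groups of all 3 cathepsins lay apart. Gusb, which cleaves glucuronic acid from sugar chains, rose by 3.12 (SE 0.76) and Atp6v1a, the catalytic subunit of the proton pump, by 2.12 (SE 0.47). Lamp1, an abundant lysosomal membrane protein, had a log2 fold change of 0.69 (SE 0.27, adjusted p = 0.0652). Of these calls 9 were kept without PE replicate 2, and the same 9 held in each of the 6 fits. Iron handling showed a similar split. Of 12 iron and heme genes 5 rose, among them Slc11a1, the phagosomal metal transporter (5.0, SE 0.83), Ftl1, the ferritin light chain (3.29, SE 0.63), and Hmox1, which breaks down heme (3.27, SE 0.59). The other 7 were not called in either direction, and without PE replicate 2 the count was 3.

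Most inflammatory genes of myeloid cells rose. Of 23 inflammatory myeloid genes 20 rose and 1 fell, with a median log2 fold change of 4.58, and 14 of the increases held in each of the 6 fits. Il1b, the cytokine interleukin 1 beta, was at -0.25, -1.03 and -1.93 in uninjured muscle and at 4.73, 5.79 and 2.71 with PE (log2 fold change 5.48, SE 1.08, adjusted p = 0.00347). PE replicate 3 was the lowest of its group and still above every uninjured library. Tnf rose by 4.85 (SE 0.80) and Nlrp3, the sensor that activates interleukin 1 through the inflammasome, by 5.25 (SE 0.98). Il1rn, the natural antagonist of interleukin 1, rose by 7.04 (SE 1.3). Nos2, which makes nitric oxide, was not called (-0.66), and Sod2, the mitochondrial superoxide dismutase, fell by 1.31. Many of these genes are at low levels in uninjured muscle, and with genes whose mean log2 CPM was under 1 left out, 3 of the list were called higher.

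Neutrophil genes and the chemokines that draw them rose together. Of 12 neutrophil genes 9 rose and 1 fell (G0s2, which inhibits lipolysis and which fat cells also hold, -1.97), with a median of 3.06. S100a9, a subunit of calprotectin, was at -1.95, -1.26 and -0.82 without injury and at 4.20, 5.78 and 2.48 with PE (log2 fold change 5.49, SE 1.03, adjusted p = 0.00299). S100a8, its partner, rose by 4.70 (SE 0.88) and Csf3r, the receptor for the neutrophil growth factor, by 4.43 (SE 0.73). Of the 9 increases 6 held in each of the 6 fits, and with genes of a mean log2 CPM under 1 left out 1 was called. Of 25 chemokine genes 15 rose and 0 fell, with a median of 2.79, and 9 of them held in each of the 6 fits, which is also the count without PE replicate 2. Cxcl3 had no counts in any uninjured library and was at 1.76, 3.44 and 1.40 with PE, at least 46.6-fold higher. Ccl3 rose by 6.40 (SE 1.05) and Ccl4 by 5.79 (SE 0.96), while Ccl2 rose by 1.91 (SE 0.67, adjusted p = 0.0445), and of the 6 fits that left out 1 library only that without PE replicate 3 kept the call. The chemokine receptors Ccr1 and Cxcr4 rose by 4.31 and 2.79. Leaving out genes with a low mean left 6 chemokine calls. Reads of the Ccl genes may have been divided between similar copies.

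Genes that interferon induces rose by smaller steps. Of 21 measured, 13 rose and 0 fell, with a median log2 fold change of 1.37. Isg15, a ubiquitin-like protein, was at 0.66, 0.86 and 0.04 without injury and at 2.32, 3.66 and 2.45 with PE (log2 fold change 2.29, SE 0.44, adjusted p = 0.00319). Mx1, an antiviral GTPase, rose by 2.84 (SE 0.55), Irf7 by 2.07 (SE 0.52) and Ifit1 by 2.02. The groups of Isg15 and Mx1 did not overlap. The list had 5 calls without PE replicate 2 and 7 without uninjured replicate 3, and Isg15, Mx1, Oasl2, Oas2 and Bst2 held in each of the 6 fits. GAAA followed after 2 free bases by another GAAA, the repeat of the interferon-stimulated response element, stood on either strand in 8 of the 21 promoters of the list (38.1%) and in 3.09% of all 13788. The promoters of Isg15 and Ifit1 are printed to show it, in the same window as before and with the motif in capitals. It starts 50, 44 and 38 bases before the start in Isg15, in overlapping copies, and 86 and 67 bases before it in Ifit1.
Isg15, chr4:156285304-156285553, minus strand: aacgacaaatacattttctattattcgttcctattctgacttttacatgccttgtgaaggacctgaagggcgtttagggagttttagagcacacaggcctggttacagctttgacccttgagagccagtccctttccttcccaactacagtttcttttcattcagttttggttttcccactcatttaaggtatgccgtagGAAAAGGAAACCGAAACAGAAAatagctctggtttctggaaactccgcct
Ifit1, chr19:34618021-34618270, plus strand: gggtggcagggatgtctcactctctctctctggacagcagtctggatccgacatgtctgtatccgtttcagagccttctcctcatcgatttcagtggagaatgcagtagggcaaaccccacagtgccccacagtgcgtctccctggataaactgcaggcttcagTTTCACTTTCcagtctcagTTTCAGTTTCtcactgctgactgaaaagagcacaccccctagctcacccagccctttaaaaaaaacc

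Antigen presentation and lymphocyte genes changed to different extents. Of 17 antigen presentation genes 11 rose and 0 fell, with a median of 2.31. Cd74, the invariant chain of MHC class II, was at 5.64, 5.86 and 5.55 without injury and at 8.20, 8.67 and 7.66 with PE (log2 fold change 2.49, SE 0.51, adjusted p = 0.00442). H2-Ab1 rose by 2.58, Ciita, which switches these genes on, by 2.18, and Ccr7, the receptor that guides dendritic cells to lymph nodes, by 3.21 (SE 0.58). Of the list 5 were called without PE replicate 2, and with genes of a low mean left out 7 were. Of 14 lymphocyte genes 4 rose, Cd4 (2.95), Klrd1 (3.14), Nkg7 (2.34) and Il2rb (1.86), the last 3 of which natural killer cells hold, and 2 of the calls (Cd4 and Klrd1) held without PE replicate 2. Cd8a had a log2 fold change of 1.08 (adjusted p = 0.144). With genes of a low mean left out 0 lymphocyte genes were called, and over the other settings up to 11 were. Mouse macrophages can also hold Cd4.

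Complement genes rose in part. Of 16 genes 6 rose and 2 fell, with a median of 0.89. C3ar1, the receptor for the fragment C3a, was at 1.70, 1.52 and 1.64 without injury and at 6.32, 7.39 and 5.78 with PE (log2 fold change 4.88, SE 0.85, adjusted p = 0.00229). Its groups were far apart. Itgb2, the beta chain of complement receptor 3, rose by 6.43 (SE 1.15) and C5ar1 by 3.40 (SE 0.62). The chains of C1q, which starts the classical complement pathway, are counted in the macrophage list, and C1qa, C1qb and C1qc rose by 2.53, 3.28 and 2.56, each called in all of the 6 fits. C7, a subunit of the membrane attack complex, fell by 2.48, and Cd59a, which blocks that complex, by 1.17. The increases called were 3 without PE replicate 2, those of Itgb2, C3ar1 and C5ar1, and with library weights they were 11.

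Genes of alternative activation, the macrophage state driven by interleukin 4, did not move as a whole. Of 20 measured 4 rose and 1 fell, against 14.7% and 10% of all genes. The median was 0.15, and it was -0.15 without PE replicate 2. Arg1, which breaks down arginine, was at -0.30, -0.26 and -1.13 without injury and at 1.40, 3.77 and 2.19 with PE (log2 fold change 3.02, SE 0.83, adjusted p = 0.0173). Chil3, a chitinase-like protein, rose by 3.83 (SE 0.91, adjusted p = 0.00926), and both calls were lost without PE replicate 2. Timd4, a receptor of long-resident macrophages, fell by 2.97 (SE 0.86). Mrc1, the mannose receptor, was at 5.10, 4.27 and 5.05 and at 6.07, 7.11 and 5.90 (log2 fold change 1.56, adjusted p = 0.054). It did not pass the test, although the groups did not overlap. With the MRL PE libraries left out of the fit Mrc1 passed (adjusted p = 0.0379). The count of increases was 1 without PE replicate 2, 2 without uninjured replicate 3 and 2 to 8 over the other settings. Of the 6 eosinophil and mast cell genes measured 1 rose and 3 fell, with a median of -0.79. Siglecf, a receptor of eosinophils, had no counts in any uninjured library and was at 1.67, 2.40 and 0.53 with PE, at least 27.0-fold higher. Between PE and ECM 0 genes of this list were called. With the MRL PE libraries left out of the fit, Siglecf was higher with PE than with ECM by 3.15 (SE 0.65, adjusted p = 0.00513). The paper, by flow cytometry, found more eosinophils with ECM than with PE. Which cells held the Siglecf RNA was not tested. The mast cell proteases fell. Cpa3 was at 2.04, 1.35 and 2.33 and at 0.05, 0.19 and -1.64 with PE (log2 fold change -2.37, SE 0.50, adjusted p = 0.0048), and Cma1 fell by 4.11 (SE 1.10, adjusted p = 0.015), with no counts in PE replicates 2 and 3. The fall of Cma1 was not called without PE replicate 2.

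Matrix genes rose in part. Of 42 collagen genes 11 rose and 0 fell, with a median log2 fold change of 1.04. Col1a1, a chain of the main fibrillar collagen, was at 8.24, 8.12 and 8.74 without injury and at 10.57, 11.21 and 10.67 with PE (log2 fold change 2.45, SE 0.73, adjusted p = 0.0243). Col3a1 rose by 2.54 (SE 0.65, adjusted p = 0.0119) and Col1a2 by 2.15 (SE 0.66, adjusted p = 0.027), and the groups of these 3 genes did not overlap. Of 33 other matrix and crosslinking genes 8 rose and 0 fell, with a median of 1.14. Fn1, fibronectin, rose by 2.25 (SE 0.71), Postn, periostin, by 2.35 (SE 0.75), and P4ha3, a collagen prolyl hydroxylase, by 4.07 (SE 1.00). Lox, which crosslinks collagen, was at 4.36, 4.57 and 4.31 and at 5.73, 6.35 and 5.95 (log2 fold change 1.6, adjusted p = 0.0512). These counts rested on the libraries and on the estimate of the spread. Both lists had 0 calls without PE replicate 2. Without uninjured replicates 1, 2 and 3 or PE replicate 1 the collagen list had 2, 2, 3 and 3 and the other list 3, 4, 2 and 2. With the MRL PE libraries left out they had 17 and 16, and over the other settings 10 to 28 and 7 to 23.

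Of 17 matrix protease genes 9 rose and 1 fell, with a median of 1.17. Plaur, the urokinase receptor, was at 0.57, -0.05 and 0.56 without injury and at 5.47, 6.42 and 4.94 with PE (log2 fold change 5.25, SE 1.01, adjusted p = 0.00323). Mmp13, a collagenase, rose by 4.97 (SE 1.55, adjusted p = 0.0286), Mmp19 by 4.89 (SE 0.99), Mmp3 by 4.01 (SE 0.93) and the inhibitor Timp1 by 4.0 (SE 1.01). Timp4, another inhibitor, fell by 2.02. The increases called without PE replicate 2 were 2, Plaur and Mmp19. Of 21 fibroblast and TGF-beta genes 3 rose and 0 fell, with a median of 0.32. That share of increases was near the 14.7% of all genes that rose. Tgfb1 was at 2.99, 3.13 and 2.69 and at 5.98, 6.61 and 5.40 with PE (log2 fold change 3.06, SE 0.60, adjusted p = 0.00344) and was the increase that held in each of the 6 fits. Over the other settings the count was 3 to 9. Acta2, the actin of myofibroblasts and smooth muscle, had a log2 fold change of -0.73 (adjusted p = 0.125).

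Some genes of new muscle fibres and of the immature or denervated membrane rose. Of 20 regenerating fibre genes 9 rose and 1 fell, with a median log2 fold change of 1.38. Myh3, the embryonic myosin, was at 3.00, 0.79 and 1.88 in uninjured muscle and at 6.00, 5.09 and 6.26 with PE (log2 fold change 3.89, SE 1.27, adjusted p = 0.0338). Myh8, the neonatal myosin, rose by 4.25 (SE 1.23, adjusted p = 0.0208), Myog, the factor of fibre differentiation, by 2.78 (SE 0.85, adjusted p = 0.0263), and the fusion proteins Tmem8c (Myomaker) and Gm7325 (Myomerger) by 4.10 (SE 1.28) and 4.11 (SE 1.37). Pax7, the marker of satellite cells, was at 2.16, 1.82 and 2.35 and at 1.33, 1.32 and 1.41 (log2 fold change -0.76, adjusted p = 0.107). The member that fell was Mstn, which limits muscle growth (-1.54). None of these calls held in all of the 6 fits. The count of increases was 0 without PE replicate 2, 4 and 2 without uninjured replicates 1 and 2, 5 without uninjured replicate 3, 2 without PE replicate 1 and 5 without PE replicate 3, and it reached 14 with library weights.

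Of 18 synapse and denervation genes 7 rose and 0 fell, with a median of 1.29, and Chrng, Myog and Ncam1 are in both lists. Chrng, the fetal subunit of the acetylcholine receptor, was at -0.07, -1.22 and -1.50 without injury and at 4.45, 3.88 and 3.93 with PE (log2 fold change 5.02, SE 1.33, adjusted p = 0.0145). Runx1, which denervated fibres turn on, rose by 4.10 (SE 1.00, adjusted p = 0.00999) and Chrna1 by 3.24 (SE 0.87, adjusted p = 0.0157). Fbxo32, an atrophy ubiquitin ligase, had a log2 fold change of -0.73 (adjusted p = 0.17). The list had 0 calls without PE replicate 2, 2 without uninjured replicate 2, 4 without uninjured replicate 3, 3 without PE replicate 1 and 11 with library weights. Of 18 calcium handling genes 1 was called, Sln, sarcolipin, an inhibitor of the calcium pump that young fibres hold. It was at 2.83, 2.26 and 2.57 without injury and at 8.62, 7.21 and 8.24 with PE (log2 fold change 5.47, SE 1.50, adjusted p = 0.0167), and this call was lost without PE replicate 2. The list had a median of -0.60, and 10 of its genes were called lower with library weights and 3 with the MRL PE libraries left out.

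The promoter of Chrng is printed for the E-box CAGCTG, in capitals, the letters that muscle factors such as MyoD and myogenin bind. The motif starts 114 and 91 bases before the start of the gene.
Chrng, chr1:87133242-87133491, plus strand: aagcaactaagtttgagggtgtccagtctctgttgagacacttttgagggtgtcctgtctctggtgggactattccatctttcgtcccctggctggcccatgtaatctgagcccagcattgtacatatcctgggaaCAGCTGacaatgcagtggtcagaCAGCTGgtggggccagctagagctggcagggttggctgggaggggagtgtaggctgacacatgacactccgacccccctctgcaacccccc
It stood in 5 of the 18 promoters of the synapse and denervation list (27.8%), 4 of the 20 of the regenerating fibre list (20.0%) and 8 of the 33 of the adult sarcomere list (24.2%), against 11.5% of all 13788. The share was 11.1% in the calcium handling list, and it was as high in lists of other kinds, with 28.6% for glycolysis and glycogen, 25% for iron and heme and 23.5% for matrix proteases. Another E-box that was searched, CACCTG, stood in 16.8% of all promoters. Its share was 5.0% in the regenerating fibre list, 22.2% in the synapse and denervation list and 42.4% in the adult sarcomere list.

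Adult contractile genes were mostly lower and mostly not called. Of 33 adult sarcomere genes 1 fell and 0 rose, with a median log2 fold change of -0.87, or -0.46 with equal library totals and -0.27 with quantile normalization. The gene that fell was Myh2, the myosin of oxidative fast fibres, at 12.52, 8.34 and 11.54 without injury and at 6.59, 5.16 and 9.32 with PE (log2 fold change -3.78, SE 1.20, adjusted p = 0.0304). Uninjured replicate 2 lay below PE replicate 3, so these groups overlapped, and the call was lost without uninjured replicates 1 or 3 or PE replicates 1 or 2. Without uninjured replicate 2, 7 genes of the list were called lower, and without PE replicate 3, 4 were. Over the other settings the count ran from 1 to 25, the highest with library weights. Ryr1, the calcium release channel, was at 12.62, 12.30 and 12.75 and at 11.76, 10.95 and 11.89 (log2 fold change -1.02, adjusted p = 0.142).

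Among the metabolic lists fat oxidation fell furthest, and the TCA cycle and oxidative phosphorylation lists fell by less. All 24 fatty acid oxidation genes measured were called lower, with a median log2 fold change of -2.04. Acadm, the medium-chain acyl-CoA dehydrogenase, was at 8.72, 9.52 and 8.80 without injury and at 6.94, 6.49 and 7.30 with PE (log2 fold change -2.10, SE 0.41, adjusted p = 0.0033). Cpt1b, which lets fatty acids into mitochondria, fell by 1.85 (SE 0.43), Ppara, the nuclear receptor that drives the pathway, by 3.57 (SE 0.83), Plin5, a lipid droplet protein next to mitochondria, by 3.82 (SE 0.80), Acsm3, a medium-chain acyl-CoA synthetase, by 4.37 (SE 1.28), and Ppargc1a, a coactivator of mitochondrial genes, by 1.57 (SE 0.48). The groups of these 6 genes did not overlap. Uninjured replicate 2, which was high in fat genes, was the highest uninjured library for Acadm, Ppara and Acsm3. For Cpt1b, Plin5 and Ppargc1a the highest was uninjured replicate 3. Whether fibres or fat cells held this RNA was not tested. Without PE replicate 2, 9 of the 24 were called, among them Acadm and Plin5, and these 9 held in each of the 6 fits.

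Of 17 TCA cycle genes 15 fell and 0 rose, with a median of -1.24. Cs, citrate synthase, was at 9.84, 10.09 and 9.86 without injury and at 8.85, 8.12 and 8.98 with PE (log2 fold change -1.27, SE 0.36, adjusted p = 0.0187). Pdha1, a subunit of pyruvate dehydrogenase, fell by 1.53 (SE 0.42). Idh3a had a log2 fold change of 3.55 (SE 2.35, adjusted p = 0.257), and its PE libraries ranged from 1.95 to 5.82. Of 81 oxidative phosphorylation genes 65 fell and 0 rose, with a median of -0.95. That median was near those of the adult sarcomere list (-0.87) and the glycolysis and glycogen list (-0.84). With equal library totals the 3 medians were -0.54, -0.46 and -0.43. Atp5b, the catalytic subunit of ATP synthase, was at 11.86, 11.71 and 11.75 and at 10.51, 9.80 and 10.68 with PE (log2 fold change -1.44, SE 0.43, adjusted p = 0.0237), and Ndufs8, a subunit of complex I, fell by 1.60 (SE 0.34, adjusted p = 0.00489). The oxidative phosphorylation count was 1 without PE replicate 2 (Ndufs8), 21 and 31 without uninjured replicates 1 and 3, and 31 with equal library totals. The TCA cycle count was 0 without PE replicate 2 and 8 and 6 without uninjured replicates 1 and 2. Of 21 glycolysis and glycogen genes 3 fell, with a median of -0.84. They were Fbp2 (-1.86), Ppp1r3c (-1.64) and Gbe1 (-1.49), which act in sugar and glycogen synthesis. Without PE replicate 2 this count was 0, it was 1 without uninjured replicates 1 or 3 or PE replicate 1, and it ranged from 2 to 20 over the other settings. Eno3, the muscle enolase, had a log2 fold change of -1.0 (adjusted p = 0.102).

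Some fat genes fell, against uninjured libraries that differed from each other. Of 21 adipocyte genes 6 fell and 0 rose, with a median log2 fold change of -2.78. Ucp1, the uncoupling protein of brown and beige fat (chromosome 8, 84016647 to 84025085), was at 3.86, 8.14 and 5.84 in uninjured muscle and at -1.58, -2.60 and -2.75 with PE (log2 fold change -8.25, SE 1.81, adjusted p = 0.0062). Cidea, a lipid droplet protein of the same fat, fell by 6.43 (SE 1.55, adjusted p = 0.00986). Both held in each of the 6 fits. Ucp1 was also low with saline (-3.09, -3.06 and 0.24) and in 2 of the 3 ECM libraries (-2.60 and -1.88, against 4.21 in replicate 3). Adipoq, adiponectin, was at 6.90, 8.76 and 7.30 and at 3.94, 5.24 and 4.85 (log2 fold change -2.98, SE 1.16, adjusted p = 0.0659), and Plin1, which coats lipid droplets, had a log2 fold change of -4.60 (adjusted p = 0.0566). Uninjured replicate 2 was the highest library for all 4 of these genes, and the groups did not overlap. The count of falls was 3 without uninjured replicate 2 or PE replicate 1 and 2 without PE replicate 2, and 17 with the MRL PE libraries left out or with only the groups compared. Other genes that fell far were Otop1, a proton channel of brown fat (-5.22, SE 1.43), Ntrk3, the receptor for neurotrophin 3 (-4.81, SE 1.24), and Pck1, which makes glycerol precursors in fat (-4.70, SE 1.43). All 3 calls were lost without uninjured replicate 2, and uninjured replicate 2 was the highest library for each. The Otop1 call was also lost without PE replicate 2 (adjusted p = 0.0684), and Pck1 was called in 2 of the 6 fits that left out 1 library. How much fat tissue each library held was not tested.

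Some vessel and nerve genes fell. Of 17 endothelial genes 6 fell and 0 rose, with a median of -0.59. Kdr, the main VEGF receptor, was at 6.84, 6.77 and 6.33 without injury and at 5.43, 5.03 and 5.33 with PE (log2 fold change -1.39, SE 0.33, adjusted p = 0.00986), and Pecam1 fell by 0.61 (SE 0.19, adjusted p = 0.0253). The count was 1 without PE replicate 2 (Tek, an angiopoietin receptor), 3 without uninjured replicate 1 or PE replicate 1, 2 with equal library totals and 12 with library weights. Of 12 smooth muscle and pericyte genes 4 fell and 0 rose, with a median of -1.20. Myh11, the smooth muscle myosin, fell by 1.95 (SE 0.48) and Rgs5, a pericyte gene, by 1.13 (SE 0.30). That count was 0 without PE replicate 2, 1 without uninjured replicate 1 or PE replicate 1, 2 without uninjured replicate 3 or with equal library totals and 11 with library weights. Of 14 Schwann cell genes 6 fell and 1 rose, with a median of -1.01. The mean level of this list, relative to the uninjured mean, was -0.14, 1.12 and -0.98 in the uninjured and -0.69, -0.66 and -0.54 in the PE libraries, so uninjured replicate 3 lay below every PE library and replicate 2 above all others. Prx, periaxin, a protein of myelinating Schwann cells, was at 3.74, 5.02 and 1.99 without injury and at 0.59, 0.98 and 1.61 with PE (log2 fold change -2.52, SE 0.62, adjusted p = 0.0105). The groups did not overlap, and the call was lost without PE replicate 2 (adjusted p = 0.0568). The member that rose was Egr2 (4.43, SE 0.93), a myelin factor that activated macrophages also hold. Without PE replicate 2, 1 Schwann cell gene was called lower, without uninjured replicate 2 or PE replicate 1 the count was 2, without uninjured replicate 1 and with equal library totals it was 3, and with only the groups compared it was 2.

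Red cell genes fell in every fit. Hba-a1, a hemoglobin alpha gene, was at 8.99, 8.29 and 9.44 in uninjured muscle and at 4.07, 4.74 and 3.98 with PE (log2 fold change -4.64, SE 0.80, adjusted p = 0.00216). Hba-a2 fell by 4.65 (SE 0.73), Hbb-bt by 4.59 (SE 0.75), Hbb-bs by 4.53 (SE 0.76) and Alas2, the heme synthesis enzyme of red cells, by 4.42 (SE 0.81). All 5 groups lay apart and all 5 calls held in each of the 6 fits. The alpha genes are near-identical copies, as are the beta genes, and reads may have been divided within each pair. Slc4a1, the anion exchanger of the red cell membrane, was at 0.17, 1.90 and 1.40 and had no counts in any PE library, at least 20.3-fold lower. Slc26a10, of another family of anion transporters, was at 2.26, 1.88 and 1.88 and had no counts with PE, at least 33.3-fold lower. How much blood each muscle held when it was taken was not tested.

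Cell cycle genes rose in part. Of 21 proliferation genes 10 rose and 0 fell, with a median of 1.49. Top2a, a topoisomerase of dividing cells, was at 0.70, 1.23 and 2.10 without injury and at 3.80, 4.18 and 3.01 with PE (log2 fold change 2.32, SE 0.64, adjusted p = 0.0168), and Mki67 had a log2 fold change of 1.59 (SE 0.61, adjusted p = 0.0625). Cdkn1a, the cell cycle inhibitor p21, also rose, by 2.28 (SE 0.81, adjusted p = 0.046), a call lost in each of the 6 fits. The count was 0 without PE replicate 2, 1, 3 and 5 without uninjured replicates 1, 2 and 3, 4 without PE replicate 1 and 6 to 17 over the other settings. Of 10 tendon and cartilage genes 2 rose and 1 fell, against 14.7% and 10% of all genes, with a median of 1.00. Cilp, a cartilage matrix protein, rose by 3.00 (SE 0.92), Runx2, a bone factor, rose by 2.84 (SE 0.98), and Alpl, a phosphatase, fell by 2.18 (SE 0.72). Without PE replicate 2, 0 genes of this list were called higher. The list of skin, gland and blood genes had a median of -0.34, or 0.04 with equal library totals. Beside the red cell genes, its 1 increase was Krt18 (3.28, adjusted p = 0.0365), a keratin of simple epithelia, and that call was lost in each of the 6 fits.

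**Figure D3:**
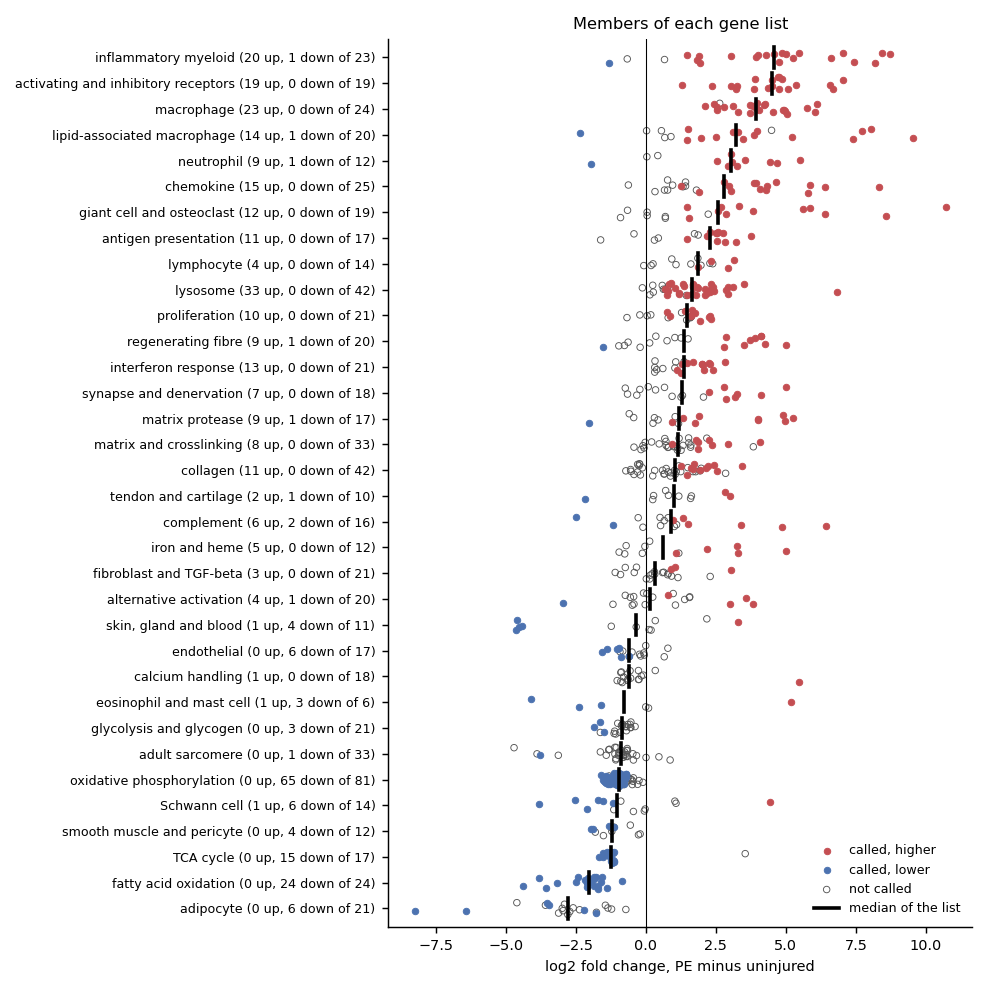
Log2 fold change of PE-treated against uninjured muscle (horizontal axis) for every measured member of the 34 gene lists (rows, with counts of genes called up and down), where filled points are called, open points are not and black bars are list medians. The medians run from 4.58 for the inflammatory myeloid list to -2.78 for the adipocyte list, and all 24 fatty acid oxidation genes and all 19 receptor genes are filled.

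The same lists were compared with the other injured B6 groups, which share the PE libraries and the uninjured libraries with the comparison above. Against uninjured muscle the saline-treated injury had 0 called genes (1751, or 12.4%, before adjustment) and ECM had 60 (0.424%). Both counts use the spread shared with the MRL PE libraries and were not rerun without those libraries. By its own analysis the paper reports genes significantly changed in B6 muscle after the control injury, such as increases of Ly86, Ccl8 and Cd74. The 0 therefore does not show that the injury alone left these genes unchanged. Tested directly, 845 genes differed between PE and saline (5.97%), 760 higher (5.37%) and 85 lower (0.600%) with PE, and 683 of the 760 were also called higher against uninjured muscle. This count was 2 without PE replicate 2, 7 without PE replicate 1, and 126, 23 and 37 without saline replicates 1, 2 and 3. By number of genes higher than with saline, the lists came in the order of 26 of 42 lysosomal genes, 16 of 24 macrophage genes, 16 of 23 inflammatory genes, 14 of 20 lipid-associated macrophage genes, 12 of 19 activating and inhibitory receptors, 10 of 19 giant cell genes and 10 of 25 chemokine genes, and no other list had more than 6. Irg1 was higher by 7.42 (SE 1.32, adjusted p = 0.0108), Cxcl2 by 7.42 (SE 1.36, adjusted p = 0.0146) and Mmp12, at 4.63, 4.71 and 4.38 with saline, by 7.19 (SE 1.96, adjusted p = 0.0388). The lowest differences among genes called lower than with saline were those of Slc26a10, with no counts in the PE libraries, and Smtnl1, a regulator of muscle contraction (-2.51, SE 0.70, adjusted p = 0.0425).

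Few genes of new fibres and matrix were called between PE and saline. In the regenerating fibre, synapse, collagen and matrix lists 0 genes were called higher with PE than with saline, and 1, the collagen gene Col20a1, was called lower (-1.13, SE 0.31). With the MRL PE libraries left out, 2 regenerating fibre genes and 2 collagen genes were called lower with PE and 4 matrix genes higher. Myh8 was at 9.24, 3.16 and 9.22 with saline and at 7.64, 6.22 and 7.85 with PE, a difference of 0.03 with an SE of 1.23. Saline replicate 2 lay at the uninjured level and the other saline libraries above the PE libraries. Mean levels of the regenerating fibre list, relative to uninjured muscle, were 2.73, 0.15 and 3.04 with saline, 1.38, 2.33 and 2.01 with ECM and 2.04, 1.14 and 2.10 with PE. For the macrophage list they were 1.19, 0.73 and 1.21 with saline, 2.06, 0.93 and 2.09 with ECM and 3.89, 4.76 and 3.28 with PE, so that list was highest in the 3 PE libraries. For the fatty acid oxidation list they were -1.47, -0.79 and -1.45 with saline, -1.58, -1.36 and -0.97 with ECM and -2.13, -2.68 and -1.75 with PE.

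**Figure D4:**
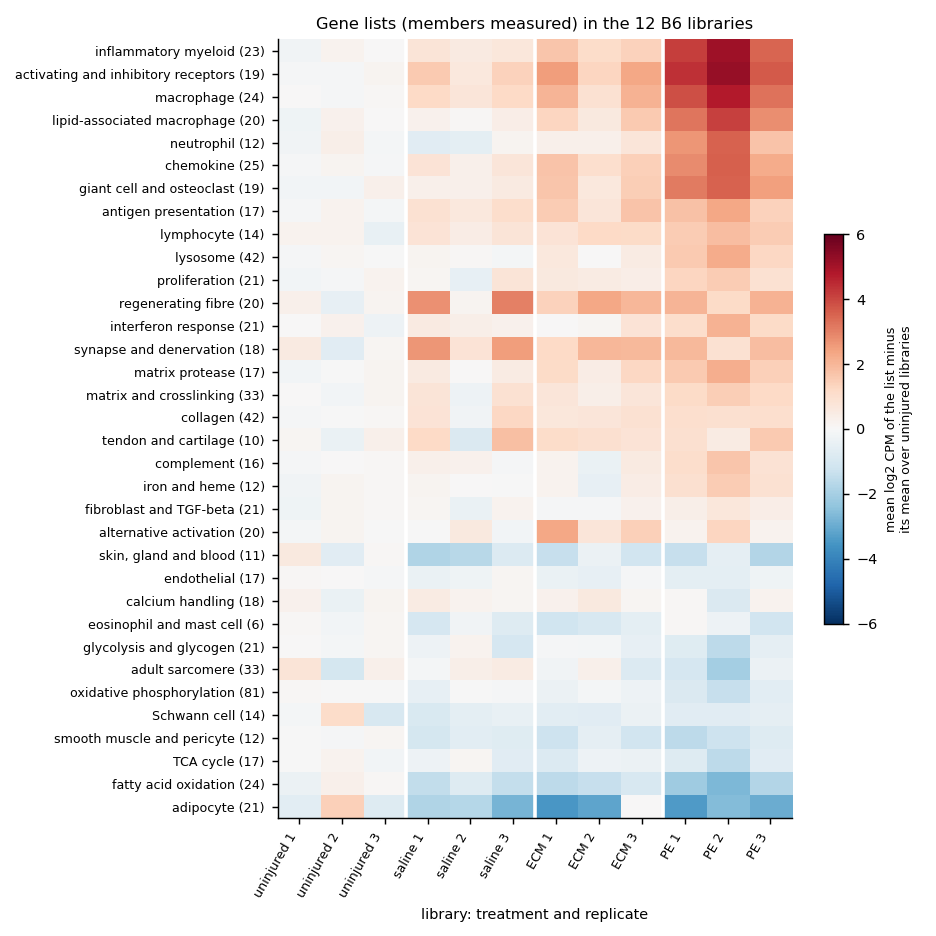
Mean log2 CPM of each gene list (rows, number of genes measured in parentheses) in each of the 12 B6 libraries (columns), minus the mean of that list over the 3 uninjured libraries, on a colour scale from -6 (blue) to 6 (red). The phagocyte lists are darkest in PE replicate 2, at 5.08 for the inflammatory myeloid list, the regenerating fibre list is pale in saline replicate 2 (0.15), and the adipocyte list is pale in ECM replicate 3 (0.02).

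Between the implants 32 genes differed (0.226%), 28 higher with PE (0.198%) and 4 higher with ECM (0.0283%), and 2911 (20.6%) had a p under 0.05 before adjustment. Of the genes higher with PE, 4 are in the inflammatory myeloid list and 4 in the neutrophil list. Il1b, at -0.43, -2.09 and -1.24 with ECM, was higher by 5.66 with PE (SE 1.08, adjusted p = 0.0443). S100a9 was higher by 5.07 (SE 1.03, adjusted p = 0.0481) and Ptgs2, the inducible cyclooxygenase, by 4.42 (SE 0.72, adjusted p = 0.0294). Mfge8, which bridges dying cells to phagocytes, was at 6.41, 6.05 and 6.36 with ECM and at 10.43, 11.70 and 10.23 with PE (difference 4.51, SE 0.80, adjusted p = 0.037). Fabp5, a fatty acid carrier, was higher by 3.13 (SE 0.55, adjusted p = 0.037) and Prdx1, a peroxiredoxin, by 2.47 (SE 0.49, adjusted p = 0.0481). Mrgpra2b, which encodes a receptor, had no counts in any ECM library and was at 1.47, 2.99 and -0.01 with PE. For each of these genes the ECM libraries lay near the uninjured ones.

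The 4 genes that were higher with ECM were Rnase2a, Chil3, Arg1 and Mrgprg. Rnase2a, an eosinophil-type ribonuclease, was at 5.24, 2.78 and 2.80 with ECM and at -2.27, -3.03 and -3.13 with PE, a difference of -6.42 (SE 0.62, adjusted p = 4.14e-05). Its copies in the mouse genome are similar, so its reads are uncertain. Chil3 was at 8.91, 4.36 and 5.94 with ECM and at 0.74, 2.62 and 0.62 with PE (difference -5.08, SE 0.91, adjusted p = 0.0382), and Arg1 was at 8.51, 5.19 and 5.88 and at 1.40, 3.77 and 2.19 (difference -4.07, SE 0.83, adjusted p = 0.0481). Both were above the uninjured level with PE and higher still with ECM. Mrgprg differed by -3.60 (SE 0.74, adjusted p = 0.0494). The count of 32 was 1 without PE replicate 2, 3 without PE replicate 1, 53 without PE replicate 3, and 2, 5 and 3 without ECM replicates 1, 2 and 3. With the MRL PE libraries left out of the fit, an alternative added after seeing the data, the count was 1443 (10.2%) and included all 32, and 32 of 42 lysosomal genes and 15 of 24 macrophage genes were then higher than with ECM. With genes of a mean log2 CPM under 1 left out it was 0, and with equal library totals or the replicate block 3.

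**Figure D5:**
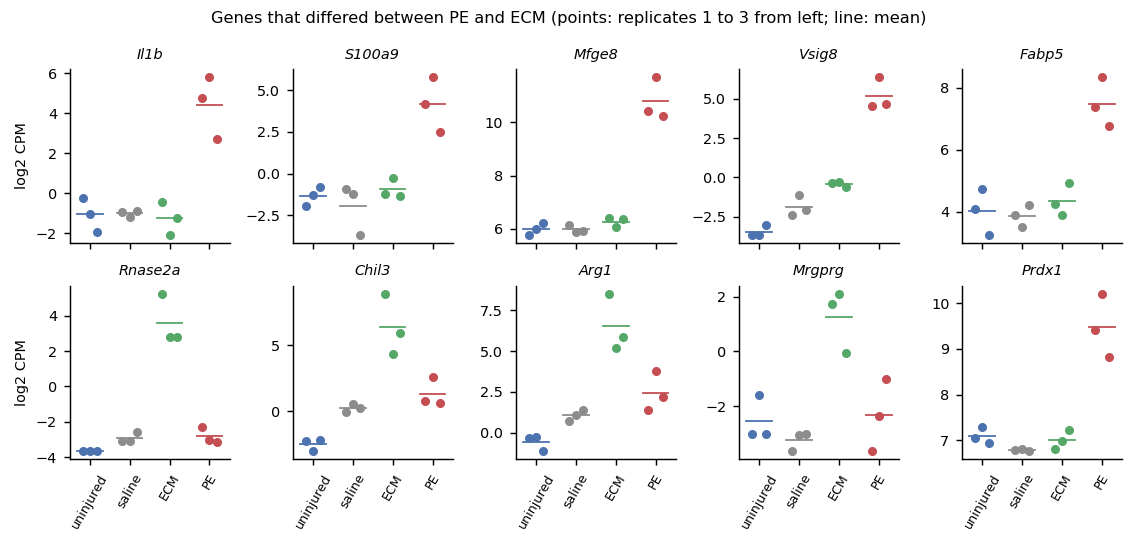
Log2 CPM (vertical axis) of 10 genes that differed between PE and ECM in the 12 B6 libraries by treatment (horizontal axis), with 1 point per library and a line at the mean of the 3. Il1b, S100a9, Mfge8, Vsig8, Fabp5 and Prdx1 are high in the PE libraries, and Rnase2a, Chil3, Arg1 and Mrgprg are high in the ECM libraries.

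The response was also compared with that of MRL mice through the difference of the 2 responses, where 3 genes were called (0.0212%), with 1652 (11.7%) before adjustment. PE against uninjured called 1377 genes (9.73%) in MRL mice. The MRL libraries did not respond alike. Mmp12 was at -0.90, 12.81 and 5.53 in PE-treated MRL muscle, against 5.42, 4.83 and 5.16 in uninjured MRL muscle, and Gpnmb was at 1.94, 12.63 and 5.69 with PE. MRL replicate 2 was near the B6 level with PE and the other MRL libraries were near or below the uninjured level. Without MRL PE replicate 2 the difference of the responses had 1354 called genes, so the small count with all libraries does not show that the responses are alike.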

How the data were processed

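Libraries were poly(A) RNA of whole quadriceps. According to the methods the authors estimated transcript abundance with kallisto against Ensembl GRCm39 cDNA, summed it to genes with tximport (lengthScaledTPM), kept genes above 1 CPM in at least 3 libraries, applied TMM scaling, and deposited log2 CPM (edgeR, prior count 2). Counts are not in the file, so no count model was run. Estimated read division between similar genes can move their values.

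From these values limma 3.58.1 (R 4.3.3; mean-variance trend, 24 libraries, 8 group coefficients) gave log2 differences, and p-values were Benjamini-Hochberg adjusted over 14159 genes. In simulated data with 200 changed genes and the same spread in every group, 87% of log2 changes of 3 and 61% of 1.5 were called. There were 7 false calls. Groups came from the labels. One row without a symbol was not tested.

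The 34 lists and their members were chosen with earlier results of these data known, and their counts are descriptions. Named genes were the 10 highest and 10 lowest called genes with non-overlapping libraries, the first 3 and furthest 3 members of each list, further list members, and the 5 furthest genes of each other comparison, predicted genes left out. Prdx1, Mfge8 and Col20a1 were named after their values were seen. A few items that this rule names are not reported here. Alternatives were log2(CPM + 1), a mean log2 CPM of at least 1, equal totals, quantile normalization, only the groups compared, library weights, a constant prior variance, robust empirical Bayes, a replicate block, each library left out and, added after seeing the data, the MRL PE libraries left out. Promoters (13788 genes) came from GRCm39 with GENCODE M39, with 13126 matched by current and 662 by older symbol. Figures used matplotlib 3.10.9.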

Additional observations from a re-analysis of the deposited data

Results flagged for a closer look

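In 3 genes the response to PE differed between the strains by the test of that difference (limma, adjusted over 14159 genes). Gm13248, a predicted gene, was at -2.28, -2.79 and -1.65 in uninjured and 1.19, 1.25 and 1.11 in PE-treated B6 muscle, and at 0.42, 1.01 and 1.05 and -0.15, 0.99 and 0.60 in MRL muscle, a difference of -3.77. Pydc4, which encodes a pyrin domain protein, was at 1.51, 1.31 and 1.50 and 2.89, 3.85 and 2.94 in B6 muscle and at 1.13, 1.51 and 2.16 and 0.61, 0.03 and 0.39 in MRL muscle, a difference of -3.04, so that it was higher with PE in B6 and lower with PE in MRL mice. Slc4a1 had no counts in the B6 PE libraries and was at 0.55, -0.24 and -0.70 in the MRL PE libraries, against -0.25, -2.57 and -2.44 in uninjured MRL muscle, and the fitted difference of 6.43 depends on the prior count.

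The mast cell proteases moved in opposite directions in the strains in all 3 libraries of each group, and these differences did not pass the adjusted test. Cma1 was at 0.69, 1.20 and 0.84 in uninjured and 3.17, 2.84 and 2.84 in PE-treated MRL muscle, a difference of responses of 6.15. Cpa3 was at 1.75, 1.47 and 0.41 and at 3.14, 2.50 and 2.48 in MRL muscle, a difference of 3.86. Direction in all libraries was compared only for genes that the text names. The table also holds a row that carries no gene symbol, at 5.16, 5.51 and 5.15 in uninjured and 6.85, 7.57 and 6.94 in PE-treated B6 muscle, a difference of means of 1.85.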

How the results depend on the processing

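The count of genes called between PE and uninjured muscle, 3508, kept its size within 1.5 times under every alternative that kept all 6 libraries except library weights (9004), and it ranged from 533 to 3435 when 1 library was left out. The count against saline, 845, was 9640 with library weights, 2258 with the MRL PE libraries left out and 2 to 1281 when 1 library was left out. The count against ECM, 32, was 121 with log2(CPM + 1), 0 without genes of a mean log2 CPM under 1, 3 with equal library totals, 166 with only the groups compared, 5579 with library weights, 3 with the replicate block, 1443 with the MRL PE libraries left out and 1 to 53 when 1 library was left out. The count for the difference between the strains, 3, was 7 with log2(CPM + 1), 1 without genes of a mean log2 CPM under 1, 5 with equal library totals, 7 with quantile normalization, 0 with only the groups compared, 3881 with library weights, 7 with the replicate block and 1 to 1354 when 1 library was left out. The cause of these shifts was not tested.

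Genes near no difference changed sign against uninjured muscle. Mrgprg was at -0.53 with quantile normalization, -0.77 with library weights and between -0.47 and 0.85 in the fits that left out 1 library, and Ocstamp was at -0.46 with quantile normalization and between -0.19 and 0.48 in those fits. Deviations of same-numbered PE and uninjured libraries correlated at 0.087, 0.247 and 0.118, above 0.1 for 2 of 3 numbers. Of the 3 PE libraries 2 matched their own number best. These values do not decide whether replicate numbers pair the libraries. With the replicate block 3353 genes were called against uninjured muscle, 1987 of them higher. With 3 libraries a group, changes under about 1.5 on the log2 scale were often missed in simulated data, and genes near 3 counts are limited by depth.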
